A study of Homo sapiens with 9 samples.

Results

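The transcripts of 9 brush border hydrolases, ALPI, ANPEP, DPP4, SI, ENPEP, MEP1A, MGAM, MGAM2 and TREH, were followed in Caco-2 cells, an established line from a human colon carcinoma that takes on enterocyte features in culture. They were picked by name from the 27677 genes of the count table, each gene standing for its RefSeq transcript with the highest total count. Poly(A) RNA was sequenced from 9 libraries in 3 groups of 3. All 3 groups, the controls included, received 10 µM lovastatin, an inhibitor of HMG-CoA reductase, for 48 h in medium with lipid-depleted serum. The first group had lovastatin alone, the second had 10 µM SGA360 as well and the third had 10 µM SGA315 as well. The series describes both SGA compounds as selective AHR ligands; AHR, the aryl hydrocarbon receptor, is a transcription factor activated by small molecules. Cells without lovastatin were not analysed here. All libraries are from 1 cell line, and no label names separate cultures within a group, so the p-values rest on a spread between libraries that may be technical.

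Brush border hydrolases are enzymes held on the apical microvilli of enterocytes, where they carry out the last steps of digestion next to the transporters that take up the products. Peptidases trim peptides to amino acids and short peptides, and disaccharidases split starch fragments, sucrose and trehalose to simple sugars. Intestinal alkaline phosphatase removes phosphate groups from nucleotides and from bacterial lipopolysaccharide. In the intestine these genes are switched on as cells leave the crypt and mature, and transcription factors of the HNF1, CDX, HNF4 and GATA families are known to act on several of their promoters. Caco-2 cells are widely used to study them because the cells form microvilli when they reach confluence.

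Promoter windows are shown because the members differed in which way they moved and because the series describes its compounds as ligands of a receptor that binds DNA. RefSeq windows of GRCh38.p14 covered 8 of the 9 members (9 windows of 250 bases, 2 of them for ANPEP); MEP1A had none. Each window ends at the base before the annotated start and is printed 5′ to 3′ on the strand of the gene. Capitals mark 3 short motifs on either strand: GTTAAT (recognised by HNF1 factors), TTTATG (bound by CDX factors) and GCGTG (the core of the AHR response element). Their letters do not overlap each other in the windows printed. The windows are SI (chr3:165078497-165078746, minus strand), MGAM (chr7:141995629-141995878, plus strand), MGAM2 (chr7:142111468-142111717, plus strand), ANPEP (chr15:89806629-89806878, minus strand, the one of its 2 windows that holds a motif), ALPI (chr2:232455903-232456152, plus strand) and DPP4 (chr2:162074216-162074465, minus strand).

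SI: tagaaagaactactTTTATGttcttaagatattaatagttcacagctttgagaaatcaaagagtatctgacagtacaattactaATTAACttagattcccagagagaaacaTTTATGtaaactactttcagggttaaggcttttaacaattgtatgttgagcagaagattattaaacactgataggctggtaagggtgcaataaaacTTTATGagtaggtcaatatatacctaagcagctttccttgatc

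MGAM: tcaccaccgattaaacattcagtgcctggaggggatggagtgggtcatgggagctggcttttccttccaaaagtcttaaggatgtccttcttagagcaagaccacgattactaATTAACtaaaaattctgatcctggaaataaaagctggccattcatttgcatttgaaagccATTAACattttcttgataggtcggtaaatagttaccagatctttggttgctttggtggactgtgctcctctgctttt

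MGAM2: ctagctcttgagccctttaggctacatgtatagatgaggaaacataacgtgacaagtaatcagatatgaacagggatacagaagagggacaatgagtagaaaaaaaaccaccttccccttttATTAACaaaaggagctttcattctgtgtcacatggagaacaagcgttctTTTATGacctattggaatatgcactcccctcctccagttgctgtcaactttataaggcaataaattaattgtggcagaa

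ANPEP: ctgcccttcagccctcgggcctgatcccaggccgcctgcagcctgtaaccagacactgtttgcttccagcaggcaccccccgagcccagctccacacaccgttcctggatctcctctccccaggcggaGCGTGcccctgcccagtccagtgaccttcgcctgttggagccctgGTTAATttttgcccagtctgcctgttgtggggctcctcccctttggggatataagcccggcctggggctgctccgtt

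ALPI: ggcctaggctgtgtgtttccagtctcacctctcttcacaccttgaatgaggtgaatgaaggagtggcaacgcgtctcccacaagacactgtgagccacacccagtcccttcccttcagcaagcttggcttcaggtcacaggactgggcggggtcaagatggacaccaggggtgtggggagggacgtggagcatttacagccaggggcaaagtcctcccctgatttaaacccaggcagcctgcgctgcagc

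DPP4: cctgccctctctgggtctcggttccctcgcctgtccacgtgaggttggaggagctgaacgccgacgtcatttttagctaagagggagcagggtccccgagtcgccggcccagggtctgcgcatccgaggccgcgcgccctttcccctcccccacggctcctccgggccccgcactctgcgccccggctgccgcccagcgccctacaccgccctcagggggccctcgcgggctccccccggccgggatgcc

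The HNF1 letters were found in 4 of the 9 windows, those of SI, MGAM (with 2 copies), MGAM2 and 1 of ANPEP, against 6.23% of all 35116 windows. The CDX letters were found in 2 windows, SI and MGAM2, against 9.64% of all windows. SI held 3 copies and MGAM2 1. The longest run shared by the windows of the disaccharidase genes SI and MGAM had 14 bases, attactaattaact, and included the HNF1 letters. Of all 35116 windows only these 2 held it. The run was picked from these 2 windows for its length, so that count is a description only. The AHR core was found in 2 windows, 1 of ANPEP and that of TREH, against 32.2% of all windows. The base composition of the windows ranged from 31.6% G and C in SI, a value that 2.4% of windows fell below, to 73.6% in DPP4 and 74.0% in the other ANPEP window. MGAM2 had 39.2% and MGAM 41.6%, against a median of 58.0% over all windows. The HNF1 and CDX letters are mostly A and T. Their shares among windows of like composition were not computed, so no enrichment is read from the counts above. These matches describe letters within the windows and no binding was measured.

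The libraries held 12334083 to 16870148 counts with each gene counted through 1 transcript. Levels are given as CPM, counts scaled to library size with TMM factors. A count of 0 allows up to 3 counts, or 0.174 to 0.236 CPM. Libraries of a group differed by 1.36 to 2.40 times the variance of counting alone (chi-square per degree of freedom), so none was taken for a repeat of another. Of 7 enterocyte markers 5 passed the filter on low counts. All 7 together summed to 2326 to 2376 CPM in the controls, 1563 to 1636 CPM under SGA360 and 1598 to 1616 CPM under SGA315. That sum rested on the apolipoprotein genes APOA1 and APOB and on VIL1, the villin gene, whereas FABP2, a fatty acid binding protein of small bowel enterocytes, had 1 count in all and KRT20 18. Single markers of the list fell with SGA360 as the sum did but were higher with SGA315. FABP1 had a mean of 29.9 CPM in the controls, 23.9 under SGA360 and 57.0 under SGA315, and APOA4 had 4.99, 2.78 and 6.21 CPM. Of the colonocyte markers, 4 of 7 passed and AQP8 was at 0. The colonocyte sums were 17.1 to 19.1 CPM in the controls, 12.7 to 15.5 under SGA360 and 13.2 to 14.8 under SGA315. In that order of groups CA2 had means of 8.37, 4.15 and 4.82 CPM and GUCA2A 2.69, 1.07 and 0.627. CA4 went the other way, at 6.80, 8.58 and 7.49 CPM, and SLC26A3 had 0.277, 0.263 and 0.891. Crypt and stem markers (5 of 6 passed) summed to 246 to 256, 142 to 149 and 133 to 140 CPM in the same order of groups. Goblet markers (4 of 7 passed, with MUC2 at 15 counts in all) summed to 119 to 129, about 113 and 88.7 to 90.7 CPM. That sum rested on AGR2, with means of 117, 107 and 84.1 CPM, whereas ZG16 had 0.777, 1.28 and 1.82. Enteroendocrine markers (1 of 6 passed; NEUROD1, GCG and SST at 0) held 9.50 to 10.5, 11.9 to 12.4 and 11.6 to 13.02 CPM. Paneth markers (2 of 5 passed; DEFA5 and REG3A at 0) held 10.4 to 12.02, 6.09 to 7.08 and 9.05 to 10.1 CPM, with LYZ at means of 10.4, 4.02 and 5.25 and PLA2G2A at 0.848, 2.62 and 4.24 CPM. The sums of leukocyte markers (1 of 4 passed) were 7.29 to 9.50, 7.24 to 10.5 and 4.84 to 6.25 CPM. CD14 had means of 8.22, 8.61 and 4.79 CPM, whereas PTPRC had 0.138, 0.242 and 0.485. Fibroblast markers (2 of 6 passed) held 402 to 408, 198 to 210 and 208 to 210 CPM, with PDGFRA at means of 361, 172 and 188 CPM and COL1A1 at 44.1, 30.2 and 21.3, while the fibroblast genes DCN and COL1A2 had 1 count each. The part of these shifts in the results below was not tested, and in bulk RNA fewer cells of a type and less RNA per cell cannot be told apart. All libraries are from 1 carcinoma line, so the fibroblast and leukocyte sums are levels of marker genes and not evidence of such cells.

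DPP4 was by far the most abundant of the hydrolase transcripts when levels were divided by transcript length. With lovastatin alone its level was 77.8 ± 2.07 CPM per kb (SD, n = 3 here and for each level below), and it made up 89.2 ± 0.454% of the summed length-scaled level of the 9 members. ANPEP followed at 4.38 ± 0.439, ALPI at 2.97 ± 0.12, MEP1A at 1.45 ± 0.082 and ENPEP at 0.237 ± 0.0933 CPM per kb. The disaccharidases were lowest, with MGAM2 at 0.146 ± 0.0452, MGAM at 0.0989 ± 0.0233, SI at 0.0828 ± 0.0312 and TREH at 0.0343 ± 0.0298 CPM per kb. Down to ENPEP no 2 neighbours in this order overlapped between their libraries. ENPEP overlapped MGAM2, MGAM2 overlapped MGAM and MGAM overlapped SI. Lengths were those of the GENCODE 29 transcripts matched to the members' accessions.

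The order shifted with each ligand. With SGA360 the libraries of ALPI (3.82 ± 0.32 CPM per kb) and ANPEP (3.75 ± 0.216) overlapped, as did those of MEP1A (0.547 ± 0.123) and ENPEP (0.400 ± 0.0983). SI, at 0.141 ± 0.0216 CPM per kb, lay above both maltase genes without overlap. With SGA315 ALPI (8.87 ± 0.217 CPM per kb) lay above ANPEP (8.48 ± 0.00753) without overlap, MEP1A stood at 1.57 ± 0.181, and MGAM2 (0.376 ± 0.0375) overlapped ENPEP (0.458 ± 0.0912). The share of DPP4 in the summed level of the members was 84.8 ± 0.383% with SGA360 and 73.1 ± 0.456% with SGA315, while that of ALPI was 3.41 ± 0.15% with lovastatin alone, 6.58 ± 0.509% with SGA360 and 11.9 ± 0.121% with SGA315.

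**Figure D1:**
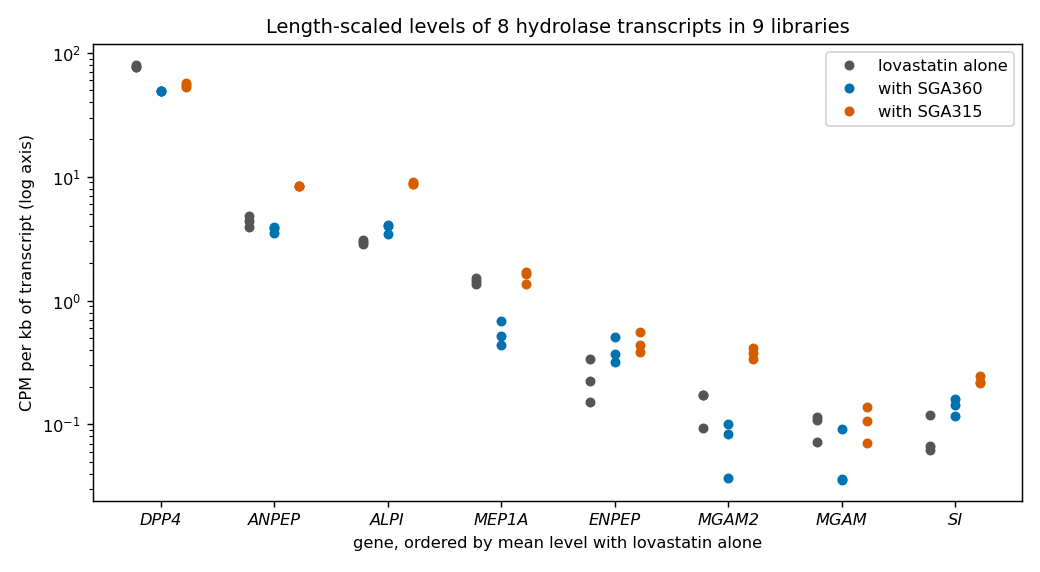
Length-scaled levels of the 8 tested hydrolase transcripts, as CPM per kb of transcript on a log axis, with 1 point per library and the genes ordered by their mean with lovastatin alone. DPP4 lies at 49.2 to 80.1 CPM per kb in all 9 libraries, and TREH, with 0 counts in some libraries, is left out.

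Most of these transcripts were higher with SGA315 than with lovastatin alone. Intestinal alkaline phosphatase (ALPI) rose 2.98-fold, aminopeptidase N (ANPEP) 1.93-fold, aminopeptidase A (ENPEP) 1.91-fold, sucrase-isomaltase (SI) 2.67-fold and the maltase-glucoamylase relative MGAM2 2.56-fold, while DPP4 fell 1.42-fold. Of the 8 tested members 5 were called higher and 1 lower against lovastatin alone at a Benjamini-Hochberg adjusted p under 0.05 (edgeR quasi-likelihood test over 14678 genes, as for every adjusted p below). Of all genes tested, 36% were called higher and 33.2% lower. 3 members rose at least 2-fold, as 4.79% of all genes did. The median log2 fold change was 0.94 over the tested members and 0.04 over all genes. SI is among the 5 and the 3 although none of its lovastatin libraries reached the minimum of the filter on low counts. These counts and the median are therefore descriptions only.

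ALPI, the phosphatase, had 7.27, 7.89 and 7.59 CPM in the 3 libraries with lovastatin alone. It had 10.1, 8.82 and 10.3 CPM with SGA360 and 22.2, 22.4 and 23.2 CPM with SGA315. All 3 SGA315 libraries were above all others, and the 3 groups did not overlap. The log2 fold change with SGA315 was 1.58 ± 0.0885 (SE; adjusted p = 3.01e-25), which placed ALPI at rank 174 of 14678 genes from the top. ALPP and ALPG, the placental and germ cell alkaline phosphatase genes, are relatives of ALPI. Of its windows of 50 bases 1.52% occur in transcripts of those genes as well. How far reads of those genes entered its counts was not tested.

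ANPEP encodes aminopeptidase N, a zinc enzyme that removes neutral residues from the amino end of peptides. It had 14.5, 16.1 and 17.7 CPM with lovastatin alone, 14.4, 14.1 and 12.9 with SGA360 and 31.2, 31.1 and 31.2 with SGA315. The SGA315 libraries were nearly alike and well above the other 6. The log2 fold change with SGA315 was 0.95 ± 0.0705 (adjusted p = 2.30e-19). ENPEP encodes aminopeptidase A, which removes acidic residues and also cleaves angiotensin II. Its libraries had 1.55, 1.05 and 2.34 CPM with lovastatin alone, 2.23, 2.55 and 3.54 with SGA360 and 3.88, 3.02 and 2.65 with SGA315. The libraries were scattered within each group, and lovastatin replicate 3 overlapped SGA360 but lay below all SGA315 libraries. The log2 fold change with SGA315 was 0.94 ± 0.222 (adjusted p = 0.000169).

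DPP4 encodes dipeptidyl peptidase 4, a serine protease that removes dipeptides ending in proline or alanine and inactivates incretin hormones. It had 298, 299 and 313 CPM with lovastatin alone, 193, 192 and 192 with SGA360 and 206, 213 and 222 with SGA315. All 6 ligand libraries were below the 3 controls, and the SGA360 libraries were below those with SGA315. The fall with SGA315 was by 0.51 ± 0.0296 on the log2 scale (adjusted p = 1.71e-24). MEP1A encodes the alpha subunit of meprin, a zinc endopeptidase. It had 4.18, 4.43 and 3.96 CPM with lovastatin alone, 1.27, 1.51 and 1.97 with SGA360 and 3.95, 4.77 and 4.92 with SGA315. The SGA360 libraries stood alone below the others. With SGA315 the log2 fold change of MEP1A was 0.12 with a 95% interval of −0.19 to 0.42 (adjusted p = 0.507). Of its 50-base windows 4.01% occur in related pseudogene transcripts.

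The disaccharidases rested on few reads. SI, whose product splits sucrose and isomaltose, had 6, 5 and 11 counts with lovastatin alone, 16, 15 and 9 with SGA360 and 20, 21 and 17 with SGA315. In CPM these were 0.404, 0.376 and 0.714, then 0.965, 0.870 and 0.708, then 1.32, 1.47 and 1.29, so the SGA315 libraries were above all others while SGA360 overlapped the controls. The log2 fold change with SGA315 was 1.41 ± 0.337 (adjusted p = 0.000183). None of the lovastatin libraries reached the minimum of 0.679 CPM, so SI entered the test through the ligand libraries and its call carries that selection. An uncharacterised gene, LOC105374192, overlaps SI (RefSeq, GRCh38.p14), and the strand setting of the counting is not given in the sources used here.

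MGAM encodes maltase-glucoamylase, which splits glucose from starch fragments, and MGAM2 is its neighbour and relative on chromosome 7. MGAM2 had 11, 18 and 21 counts with lovastatin alone (0.741, 1.35 and 1.36 CPM), 11, 5 and 10 with SGA360 (0.664, 0.290 and 0.787 CPM) and 45, 38 and 43 with SGA315 (2.96, 2.67 and 3.26 CPM). The SGA315 libraries were above all others, and SGA360 overlapped the controls in 1 library. The log2 fold change with SGA315 was 1.36 ± 0.238 (adjusted p = 9.33e-07), a rank of 299 of 14678 genes from the top. MGAM itself had 7, 10 and 11 counts with lovastatin alone, 10, 4 and 3 with SGA360 and 7, 10 and 12 with SGA315, and the 3 groups overlapped. Its log2 fold change with SGA315 was 0.08 with a 95% interval of −0.70 to 0.86 (adjusted p = 0.863). MGAM and MGAM2 shared no window of 50 bases. TREH, the trehalase gene, had 2, 2 and 0 counts, 0, 6 and 1 counts and 2, 3 and 0 counts in the 3 groups, and did not pass the filter. Without the filter its 95% interval for SGA315 was −1.74 to 2.36 on the log2 scale, so a change was not detectable at this depth. TREH overlaps PHLDB1 there as well.

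**Figure D2:**
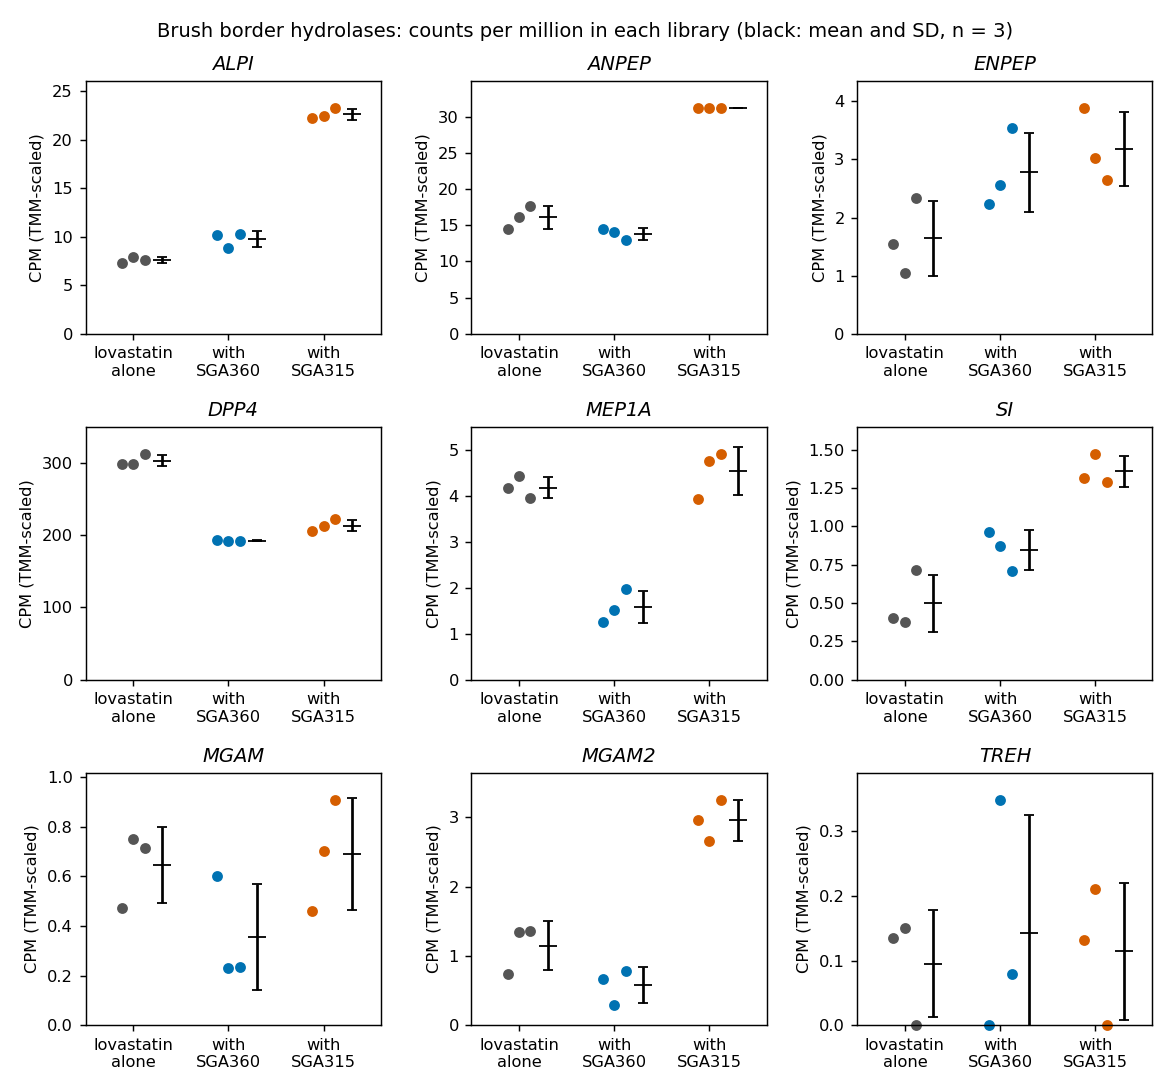
TMM-scaled CPM of the 9 hydrolase genes, with 1 coloured point per library and the mean and SD of the 3 libraries in black, on linear axes from 0 (the lower SD bar of TREH with SGA360 runs below the axis). The SGA315 points of ALPI, ANPEP, SI and MGAM2 lie above all 6 others, those of DPP4 lie below the 3 controls, and the SGA360 points of MEP1A lie below all 6 others.

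With SGA360 the hydrolases moved in both directions against lovastatin alone. MEP1A fell 2.69-fold, DPP4 1.58-fold, MGAM2 2.04-fold and ANPEP 1.16-fold, while ALPI rose 1.28-fold and ENPEP 1.62-fold. Of the 8 tested members 2 were called higher and 4 lower (3 and 3 with scaling to library totals only), where 31.4% of all genes were called higher and 31.4% lower. The median was −0.44 over the tested members and 0.02 over all genes. MEP1A and MGAM2 fell at least 2-fold, as 1.42% of all genes did. MGAM2 reached the minimum of the filter on low counts in 3 lovastatin, 1 SGA360 and 3 SGA315 libraries, so its fall carries a selection. The counts and the median here are descriptions only.

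MEP1A fell by 1.43 ± 0.191 on the log2 scale (adjusted p = 1.47e-09), rank 49 of 14678 genes from the bottom. The fall of DPP4 was by 0.66 ± 0.0296 (adjusted p = 4.64e-30), and the rise of ALPI was 0.36 ± 0.105 (adjusted p = 0.00244). The other 3 calls were sensitive to single libraries. ENPEP rose by 0.69 ± 0.227 (adjusted p = 0.00637), which was no longer called when lovastatin replicate 2 (adjusted p = 0.0846) or SGA360 replicate 3 (adjusted p = 0.0696) was left out; over 13 alternatives its adjusted p was 0.000898 to 0.0846. MGAM2 fell by 1.03 ± 0.348 (adjusted p = 0.00832), which was no longer called when lovastatin replicate 3 (adjusted p = 0.055) or SGA360 replicate 2 (adjusted p = 0.105) was left out (0.00203 to 0.105 over 13 alternatives). ANPEP fell by 0.22 ± 0.0823 (adjusted p = 0.0184), not called when lovastatin replicate 3 (adjusted p = 0.153) or SGA360 replicate 3 (adjusted p = 0.0787) was left out, nor when only library totals were used for scaling (adjusted p = 0.27; 0.00248 to 0.27 over 13 alternatives). With lovastatin replicate 3 left out, 2 members were called lower in place of 4. With lovastatin replicate 2 or SGA360 replicate 3 left out, 1 was called higher in place of 2.

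SI and MGAM were not called with SGA360. SI had a log2 fold change of 0.76 with a 95% interval of 0.02 to 1.496 (adjusted p = 0.0683), and passed the threshold once lovastatin replicate 3 was dropped (1.11, adjusted p = 0.0313) or only library totals set the scale (0.87, adjusted p = 0.0337; 0.0313 to 0.211 over 13 alternatives). MGAM, which passed the filter on low counts through none of the SGA360 libraries, had −0.80 with an interval of −1.69 to 0.08 (adjusted p = 0.11), and was called without SGA360 replicate 1 (−1.44, adjusted p = 0.0233; 0.0233 to 0.352 over 12 alternatives). Both ligand comparisons use the same 3 lovastatin libraries.

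**Figure D3:**
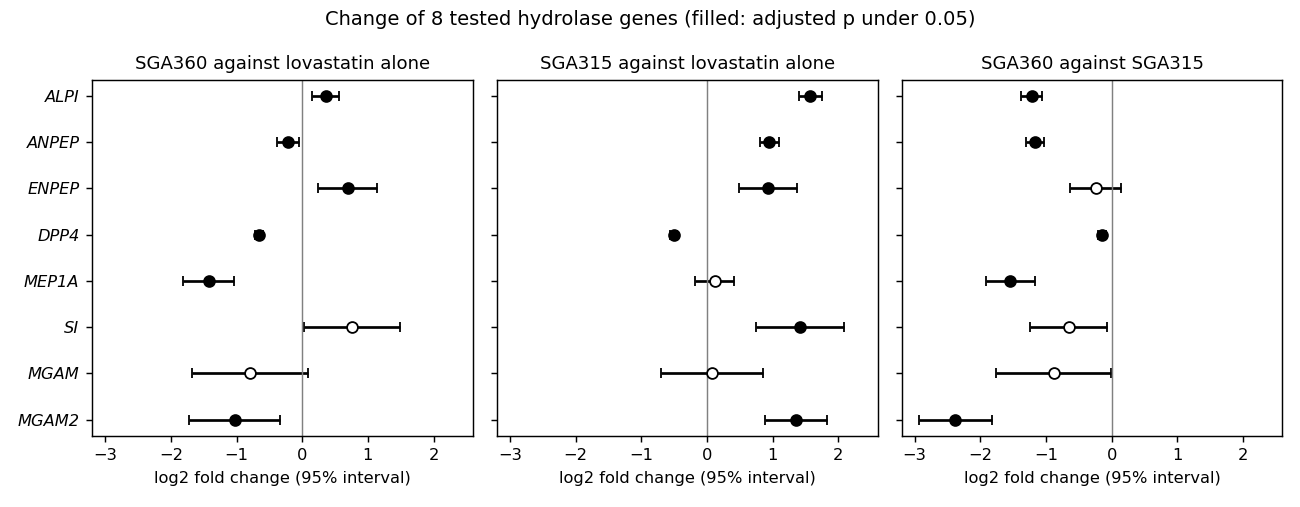
Log2 fold changes of the 8 tested hydrolase genes with 95% intervals from the edgeR fit, for SGA360 and SGA315 against lovastatin alone and for SGA360 against SGA315; filled points have an adjusted p under 0.05. In the right panel all 8 points lie below 0, from −0.15 for DPP4 to −2.38 for MGAM2.

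The ligands were compared directly at the same dose and time, as 1 pair of compounds. All 8 tested members had a lower estimate with SGA360 than with SGA315. 5 were called lower and 0 higher by edgeR (7 lower and 0 higher at an unadjusted p under 0.05; 5 and 0 by DESeq2), where 20.9% of all genes were called lower and 21.8% higher. The median log2 difference was −1.02 over the tested members and −0.01 over all genes. MGAM is among the 8 although it entered the test through 1 lovastatin and 2 SGA315 libraries and 0 SGA360 libraries, so its lower estimate with SGA360 carries that selection, and the count of 8 and the median are descriptions only. ALPI, ANPEP, MEP1A and MGAM2 were at least 2-fold lower, as 0.947% of all genes were.

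MGAM2 was 5.22-fold lower with SGA360 than with SGA315, a log2 difference of −2.38 ± 0.277 (adjusted p = 5.95e-11), and ranked 10 of 14678 genes from the bottom. It reached the filter minimum in 3 lovastatin, 1 SGA360 and 3 SGA315 libraries, so this difference and its rank carry that selection. MEP1A was 2.91-fold lower (−1.54 ± 0.188, adjusted p = 2.77e-10; rank 37). The membrane phosphatase and aminopeptidase N followed, with ALPI 2.33-fold lower (−1.22 ± 0.0824, adjusted p = 2.31e-20; rank 81) and ANPEP 2.25-fold lower (−1.17 ± 0.0718, adjusted p = 2.64e-22; rank 93). DPP4, which fell with both ligands, was 1.11-fold lower with SGA360 than with SGA315 (−0.15 ± 0.0308, adjusted p = 5.01e-05).

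SI, ENPEP and MGAM were not shown to differ between the ligands. For SI the 95% interval of the log2 difference was −1.24 to −0.07 (adjusted p = 0.063), although all its SGA360 libraries lay below those with SGA315. That held for 6 of the 8 tested members and for 24.6% of all genes. For ENPEP the interval was −0.63 to 0.15 (adjusted p = 0.327). For MGAM it was −1.76 to −0.0039 (adjusted p = 0.0997), and without SGA360 replicate 1 MGAM was called (−1.51, adjusted p = 0.0264; 0.0264 to 0.348 over 12 alternatives).

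The directions of the members against lovastatin alone thus fell into several patterns. ALPI and ENPEP were called higher with both ligands and DPP4 lower with both. ANPEP and MGAM2 were called lower with SGA360 and higher with SGA315, and for both the difference between the ligands was itself called. MEP1A was called lower with SGA360 and not called with SGA315, again with a called difference. The SGA360 calls of ENPEP, ANPEP and MGAM2 among these are the ones lost when single libraries were left out. Whether members differed from each other in their changes was not tested.

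Of 14 further peptidase genes 7 were tested, among them ERAP1, whose product works in the endoplasmic reticulum, and LNPEP, whose product is held in vesicles, so the counts are not of apical enzymes alone. With SGA360 3 were higher, ERAP1 included, and 3 lower (median 0.02; 3 and 2 by DESeq2). With SGA315 2 were higher and 2 lower, ERAP1 now among the lower (median −0.11; 3 and 1, median 0.02, with scaling to totals only). Over all genes 31.4% were higher and 31.4% lower with SGA360, and 36% and 33.2% with SGA315. For SGA360 against SGA315 the shares were 21.8% higher and 20.9% lower. Nothing is read from the counts of this list or of the next. GGT1, which encodes the gamma-glutamyltransferase that opens glutathione breakdown, rose 1.41-fold with SGA360 (adjusted p = 0.00435) and 2.00-fold with SGA315 (adjusted p = 1.30e-08). The proline-specific aminopeptidase gene XPNPEP2 fell 2.29-fold with SGA360 (adjusted p = 0.00126). The carboxypeptidase M gene CPM fell 1.60-fold with SGA315 (adjusted p = 2.55e-07). Of 10 further carbohydrate, lipid and phosphate hydrolase genes 6 were tested. With SGA360 0 were higher and 2 lower by edgeR (0 and 2 at an unadjusted p under 0.05; 0 and 1 by DESeq2 and 0 and 1 with scaling to totals only; median −0.44), and with SGA315 1 was higher and 1 lower (median 0.24). Between the ligands 0 were higher and 3 lower with SGA360 by edgeR (0 and 3 at an unadjusted p under 0.05; 0 and 2 by DESeq2; median −0.59). LCT, the lactase gene, went from 1.60 ± 0.304 CPM to 0.310 ± 0.119 with SGA360 (5.22-fold lower, adjusted p = 3.98e-08) and 0.768 ± 0.14 with SGA315 (2.07-fold lower, adjusted p = 0.00144). NT5E, an ectonucleotidase gene, rose 1.66-fold with SGA315 (adjusted p = 0.000301), fell 1.51-fold with SGA360 (adjusted p = 0.0161; 0.0571 by DESeq2) and was 2.51-fold lower with SGA360 than with SGA315 (adjusted p = 5.88e-08). ALPP, a relative of ALPI, was not called against lovastatin alone with SGA360 (adjusted p = 0.095) or with SGA315 (adjusted p = 0.377), and was 1.94-fold lower with SGA360 than with SGA315 (adjusted p = 0.0153; 0.0906 by DESeq2). The SGA360 means of XPNPEP2 (0.665 CPM), LCT (0.310 CPM) and ALPP (0.651 CPM) lay below the filter minimum of 0.679 CPM. None of these genes could enter the test through SGA360 libraries alone, so their lower levels with SGA360 carry that selection.

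Transporters that take up the products of these enzymes were also followed. Of 12 genes 11 were tested, with 6 higher and 2 lower with SGA360 (median 0.36) and 7 higher and 2 lower with SGA315 (median 0.32; 8 and 1 with scaling to totals only, 5 and 2 by DESeq2). Over all genes 31.4% were higher and 31.4% lower with SGA360, and 36% and 33.2% with SGA315. SLC15A1, the peptide transporter gene PEPT1, rose by 1.01 ± 0.111 on the log2 scale with SGA360 and by 0.90 ± 0.115 with SGA315 (adjusted p = 2.33e-12 and 2.39e-10). SLC7A9, the light chain of the cystine and dibasic amino acid carrier, rose 2.33-fold with SGA315 (adjusted p = 2.84e-11). The sugar carriers split. SLC5A1, the sodium-coupled glucose transporter gene SGLT1, went from 2.46 ± 0.0494 CPM to 0.418 ± 0.191 with SGA360 and 1.41 ± 0.538 with SGA315, 5.62-fold and 1.71-fold lower (adjusted p = 1.28e-10 and 0.00304). The SGA360 mean of SLC5A1 lay below the filter minimum of 0.679 CPM, so SLC5A1 entered the test through other groups and its fall with SGA360 carries that selection. SLC2A2, the basolateral glucose carrier gene, rose 2.20-fold with SGA360 (adjusted p = 1.43e-07), and the fructose carrier gene SLC2A5 was 3.55-fold lower with SGA360 than with SGA315 (adjusted p = 1.22e-07). The SGA360 level of SLC2A5, 0.682 ± 0.0643 CPM, lay at the filter minimum, so this difference between the ligands carries a selection as well.

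Of 14 genes for intestinal transcription factors 12 were tested, with 3 higher and 5 lower with either ligand (5 and 4 with SGA360 and 6 and 4 with SGA315 with scaling to totals only; 2 and 5 with either by DESeq2). The shares over all genes are those given for the transporters, and nothing is read from these counts. The medians were −0.13 and 0.10, against −0.02 and 0.22 with scaling to totals only. CDX2 went from 75.9 ± 0.885 CPM to 117 ± 0.92 with SGA315, 1.54-fold higher (adjusted p = 4.54e-24). With SGA360 it stood at 80.2 ± 0.788 CPM (log2 fold change 0.08, adjusted p = 0.0686), a call when only library totals set the scale (0.19, adjusted p = 1.48e-05). HNF4A, a nuclear receptor of the gut and liver, went from 457 ± 3.47 CPM to 269 ± 9.84 with SGA360, 1.70-fold lower (adjusted p = 5.77e-35). With SGA315 it was at 438 ± 10.2 CPM, a change of −0.06 (adjusted p = 0.048) that turned to 0.06 with scaling to totals only (adjusted p = 0.0341). GATA6 fell 1.63-fold with SGA360 and 1.67-fold with SGA315 (adjusted p = 9.12e-31 and 7.05e-32).

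**Figure D4:**
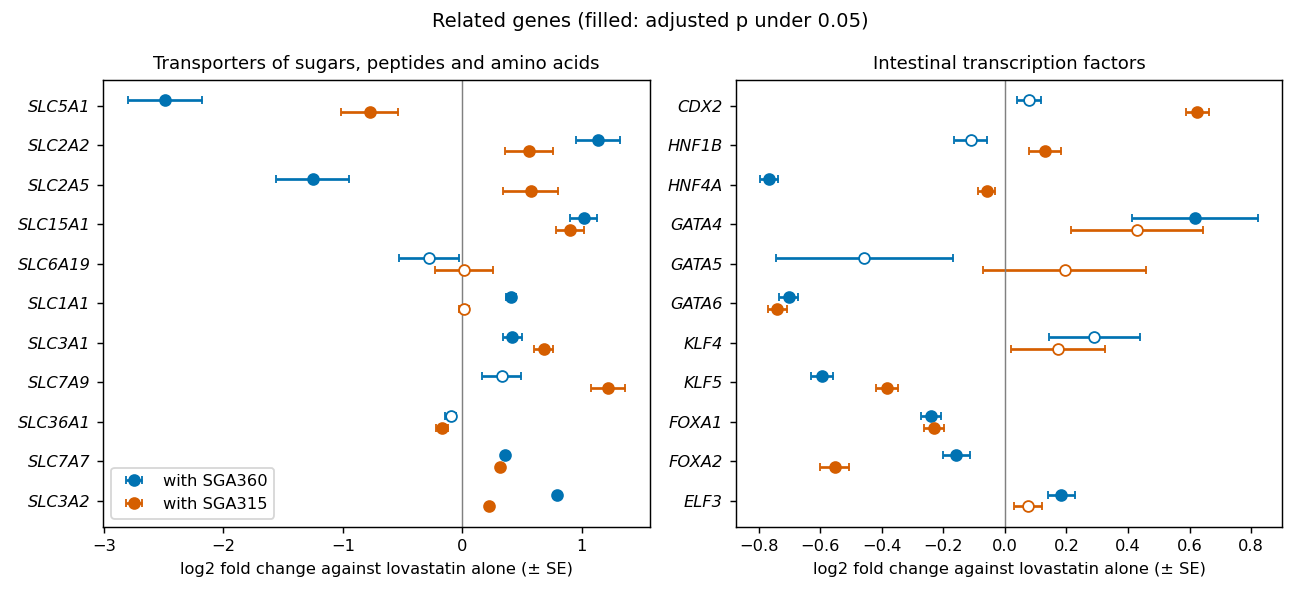
Log2 fold changes against lovastatin alone, with SE, of the tested transporter genes (left) and of 11 of the 12 tested intestinal transcription factor genes (right), with SGA360 in blue and SGA315 in orange; filled points have an adjusted p under 0.05. SLC5A1 lies at −2.49 with SGA360 and −0.78 with SGA315, CDX2 at 0.08 and 0.63, and HNF4A at −0.77 and −0.06, the last of which is 0.06 if only library totals set the scale.

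The genes whose log2 CPM ran most like each member over the 9 libraries were sought among the 11513 genes whose mean reached 5 CPM. For ALPI they were CBLB and SEC24A (Pearson r = 0.995 for each), for ANPEP FMOD (0.993) and PLEKHG3 (0.988), for DPP4 NOP14 (0.996) and FASTKD5 (0.996) and for MEP1A AKR1C1 (0.986) and GOLIM4 (0.978). For the low-count members the nearest genes were less close, with TSN at 0.975 for ENPEP, BRD8 at 0.978 for MGAM2, RPL37 at 0.984 for SI and ARHGAP11B at 0.931 for MGAM. These correlations are descriptions: the 9 points share 3 groups and their libraries, and many genes that follow the same group means reach such values.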

How the data were processed

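Poly(A) RNA of 9 Caco-2 libraries was measured, 3 per group. The table deposited by the authors holds unnormalized counts for 65325 RefSeq accessions, per the file headers and the whole-number values. Per the submitters' processing notes, TopHat2 2.0.13, HTSeq 0.5.4p3 and the hg19 build were used, in roles that are not stated. For annotation release, strand setting and filters the entry is: not given in the sources used here. Names came from RefSeq (GRCh38.p14, 64346 entries) and GENCODE 29 (545); 434 entries without a name, 0.255% of counts, stayed out. Because builds differ, coordinates are given only for the RefSeq promoter windows. Of 23 sets of genes with identical counts (at least 100 in all) 1 gene each was kept. The test was that of edgeR 4.0.16 under R 4.3.3 (quasi-likelihood F test, TMM, filterByExpr with minimum count 10 and total 15, all 9 libraries, no covariate); 14678 genes were tested, and the fit was tested on simulated data. The common biological coefficient of variation was 2.16%. Floors and intervals of counts cover counting error only. Length-scaled levels are CPM over GENCODE 29 transcript length. If only library totals set the scale, the median over all genes is 0.14 rather than 0.02 (log2) under SGA360 and 0.16 rather than 0.04 under SGA315, and 67.3% rather than 50% and 65.6% rather than 52% of called genes are higher. Named genes were the members, the largest called rise and fall per related list and comparison, and a few genes singled out after their values were seen (SLC15A1, ALPP and, for SGA360, CDX2 and GATA6, and DPP8 and DPP9). Also outside that rule are NT5E with SGA360 and between the ligands, HNF4A and DPP7 with SGA315, LNPEP, and ERAP1 against lovastatin alone. Alternatives were RLE scaling, scaling to totals, DESeq2 1.42.0, no filter, the compared groups only, a replicate block, the lowest accession per gene and leaving out each library. The members and lists were chosen with earlier results of these data known. Some single-gene results of the lists are not reported here.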

Additional observations from a re-analysis of the deposited data

How the results depend on the processing

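Over all alternatives, 297 values of single members kept their direction and their side of the threshold, 7 lost a call, 4 gained one and 2 reversed. The reversals were both of MGAM with SGA315, −0.12 without lovastatin replicate 1 and −0.15 without SGA315 replicate 3, where its log2 fold change of 0.08 had not been called (−0.15 to 0.30 over the libraries left out in turn); the cause was not tested. For SGA360 against lovastatin alone, leaving out 1 library gave 1 to 3 members called higher and 2 to 5 called lower, with the lowest values without lovastatin replicate 2 or SGA360 replicate 3 and without lovastatin replicate 3. For SGA315 against lovastatin alone it gave 5 higher and 1 lower each time, and for SGA360 against SGA315 0 higher and 5 to 6 lower. With a group reduced to 2 libraries the spread is pooled over the groups. MGAM did not pass the filter with the compared groups only, so it had no value there. DESeq2 called 7910, 8922 and 4711 genes in the 3 comparisons, against 9206, 10157 and 6264 by edgeR. For the related lists, the report gives the counts by DESeq2 or with scaling to totals only where they are named; for SGA360 against SGA315, DESeq2 called 1 peptidase higher (edgeR 2), 1 intracellular peptidase lower (edgeR 3) and 1 transcription factor gene higher (edgeR 2). Whether the replicate numbers of the labels pair the libraries was not settled. Deviations of same-numbered libraries from their group means correlated at −0.024 to 0.0456, and 6 of 9 libraries correlated best with a library of their own number. With the replicate block 2 members were higher and 4 lower with SGA360, 5 and 1 with SGA315, and 0 and 5 between the ligands, and 9337, 10273 and 6438 genes were called. Depth limits TREH (16 counts in all), MGAM (74) and SI (120).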

Other observations

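Intracellular peptidases finish the breakdown of the short peptides that enterocytes take up. All 10 genes of the list were tested, with 1 higher and 5 lower with SGA360 (2 and 3 with scaling to totals only; median −0.10, against 0.02 over all genes). With SGA315 edgeR called 0 higher and 3 lower (0 and 3 at an unadjusted p under 0.05, 0 and 3 by DESeq2, 4 and 3 with scaling to totals only; median −0.05). Over all genes 31.4% were higher and 31.4% lower with SGA360, and 36% and 33.2% with SGA315, and nothing is read from the counts of this list. PEPD, the prolidase gene, which splits dipeptides ending in proline, went from 161 ± 3.48 CPM to 106 ± 3.62 with SGA360 and 111 ± 2.99 with SGA315 (edgeR adjusted p = 9.61e-25 and 4.10e-22). DPP7, a lysosomal dipeptidyl peptidase gene, rose 1.15-fold with SGA360 (edgeR adjusted p = 2.27e-05) and had a 1.03-fold level with SGA315 that was not called (adjusted p = 0.453). DPP8 and DPP9, cytosolic relatives of DPP4, were on the same list. DPP9 fell by 0.45 ± 0.0383 with SGA360 and by 0.34 ± 0.0384 with SGA315 on the log2 scale (edgeR adjusted p = 2.18e-16 and 3.01e-12). DPP8 had changes of −0.08 ± 0.0479 and 0.01 ± 0.0481, neither of them called (edgeR adjusted p = 0.119 and 0.899). Both genes were singled out after their values were seen, and whether they differed from each other was not tested.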
